A study of Danio rerio with 6 samples.

Results

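The regions described here are all intervals on chromosome 4 in the lists of Smad2 and Eomesa peaks from blastula stage zebrafish. There were 282 of them among 7276 peaks in the whole series, comprising 22 of 898 Smad2 peaks and 260 of 6378 Eomesa peaks. ChIP-seq had been performed on wild-type AB embryos collected at the high-sphere stage, with 2 reactions with an antibody to Smad2, 2 with an antibody to Eomesa and 2 libraries of input, which is whole chromatin without immunoprecipitation. No embryo carried a mutation or received a treatment, and each reaction pooled whole embryos, so binding in different cells of the blastula cannot be told apart. Each factor had 1 merged list and each group 1 coverage track, and values therefore carry no spread between replicates. Intervals cover counting error only and no test between samples could be made.

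Smad2 is phosphorylated when Nodal ligands engage their receptors and then moves to the nucleus, where it binds DNA weakly and is held at regulatory elements by partner transcription factors such as Foxh1. Eomesa, a zebrafish homologue of Eomesodermin, is a T-box transcription factor supplied maternally. The study reports that Eomesa and Foxh1 together are needed for endoderm formation, while embryos lacking Eomesa alone have only reduced early endoderm markers. Chromosome 4 is unusual among zebrafish chromosomes, since its long arm is heterochromatic, replicates late and is rich in repeats, 5S ribosomal RNA genes and families of zinc finger and NLR-type immune genes, while its other portion resembles the remaining chromosomes. The spread of both factors was therefore read separately in the long arm and in the proximal part.

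The tracks held an estimated 12.6 M Smad2 tags, 12.3 M Eomesa tags and 19.0 M input tags (M, mega), of which chromosome 4 had 0.428 M, 0.427 M and 0.648 M. Smad2 and input tags covered 132 bp each and Eomesa tags 39 bp, so heights in tags were not compared between tracks. The exception was an alternative that divided height by input height. Signals are given as multiples of the mean of their own track, averaged over a peak, and heights as the highest number of tags within a peak. Eomesa tags covered 15.5% of the spanned length, Smad2 tags 51.0% and input tags 54.8%. Multiples of the Eomesa track are therefore not compared in size with those of the other tracks. Heights in the Eomesa track cannot exceed 78 tags.

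Foxh1 matches come first, as matches to the motif of a known partner of Smad2, which has other partners too. Matches to the Foxh1 motif were listed for 10 Smad2 peaks on chromosome 4, and each is 11 bases long. They are shown for their sequence, and nothing is read from how many peaks had one. They are printed 5′ to 3′ with the stretch AATNCACA in capitals where it occurs, N being any base.
Smad2_peak630: ctgagtcaaca
Smad2_peak634: tccAATACACA
Smad2_peak635: tccAATACACA
Smad2_peak638: cccAATCCACA
Smad2_peak640: gtcAATTCACA
Smad2_peak642: gtgAATACACA
Smad2_peak643: tccAATACACA
Smad2_peak644: gtgAATACACA
Smad2_peak645: agcAATCCACA
Smad2_peak650: gccaatccact
The capitalised stretch was present in 8 of these 10 matches, against 49.0% of the matches listed for Smad2 peaks on all other sequences. The 10 matches held 7 distinct sequences. No interval was computed for this small share, and the difference is not read as a trait of chromosome 4. The same match recurred in 3 peaks, Smad2_peak634, Smad2_peak635 and Smad2_peak643, and another recurred in Smad2_peak642 and Smad2_peak644. The matches without the capitalised stretch were those of Smad2_peak630 near the start of the chromosome and Smad2_peak650, the only long arm peak with a match. Of the 10 peaks, 5 were among the 7 Smad2 peaks that overlapped an Eomesa peak, and 5 among the 15 that did not. Matches thus occurred in both classes, and their shares were not compared. A match is a description of the sequence under a peak and not a measurement of Foxh1.

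Chromosome 4 spanned 62.1 Mb in the tracks and was divided into 13 bins of 5 Mb, the last of which was shorter. The share of a bin covered by at least 1 input tag was 61.6%, 59.5%, 61.4%, 63.2%, 59.7% and 47.4% in the first 6 bins. It was 24.3%, 20.5%, 24.1%, 22.7%, 21.8% and 34.2% in the following 6 bins and 53.1% in the last. The best split of these values by least squares fell at 30 Mb, and the long arm was read from there. Among 247 full bins on the other chromosomes input cover was 39.1% to 63.5% with a median of 56.4%, and none was below 35%, a level under which all 6 full bins of the long arm lay. In bins of 1 Mb, cover was 13.9% to 29.2% between 30 and 58 Mb, and 50.2% to 71.2% beyond 58 Mb. The low cover therefore did not reach the end of the chromosome. Reads with more than 2 places in the genome had been discarded before the tracks were made, and how much of the uncovered length this accounts for was not tested.

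**Figure D1:**
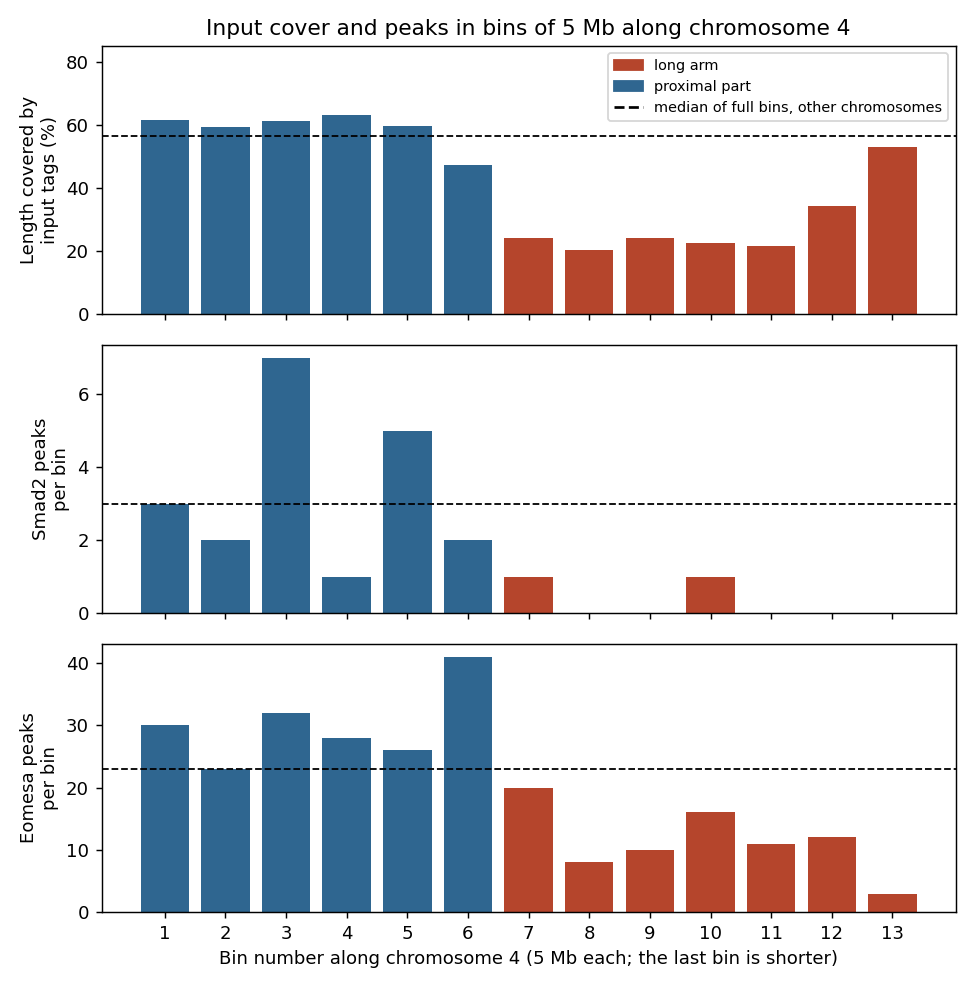
Bins of 5 Mb in order along chromosome 4 (horizontal axis, bin number), with the length covered by input tags in percent, the Smad2 peaks per bin and the Eomesa peaks per bin as bars, and a dashed line at the median of 247 full bins on other chromosomes. Input cover is 20.5% to 34.2% in the 6 full long arm bins, Smad2 peaks stand in 2 of the 7 long arm bins, and Eomesa peaks stand in all 13.

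Smad2 peaks were concentrated in the proximal part. The first 6 bins held 3, 2, 7, 1, 5 and 2 Smad2 peaks, and the 7 bins of the long arm held 1, 0, 0, 1, 0, 0 and 0. Thus 5 of the 7 long arm bins, the last of them shorter, had no Smad2 peak, whereas 8.5% of the full bins on other chromosomes had none. The bins were unlike in covered length, with input cover of 20.5% to 34.2% in the 6 full long arm bins. On other chromosomes the median was 56.4%. The part of covered length in the number of empty bins was not tested. The bin between 10 and 15 Mb was the richest, with 7 peaks and 2.28 peaks per Mb of input-covered length, and bins on other chromosomes had 0 to 18 Smad2 peaks with a median of 3. Within the proximal part the longest distance between neighbouring Smad2 peaks was 5.82 Mb. On the long arm the pair of peaks lay 13.96 Mb apart, and the last 15.99 Mb of the chromosome had no Smad2 peak.

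Eomesa peaks were present in every bin of chromosome 4. The first 6 bins held 30, 23, 32, 28, 26 and 41 Eomesa peaks, and the long arm bins held 20, 8, 10, 16, 11, 12 and 3. Counts per bin thus dropped at the same edge as input cover, and the bin of 25 to 30 Mb had the highest count. Per Mb of input-covered length, this bin had 17.3 Eomesa peaks and its neighbour from 30 to 35 Mb had 16.5. Both were above the highest of the 247 bins on other chromosomes, 15.9, whose median was 8.07. Peaks close together were counted singly in all bins, and groups of 11 and 6 neighbouring peaks lay in the bin of 25 to 30 Mb. Rates per bin with such groups counted as 1 were not computed, so these high values may not hold for separate regions. The other long arm bins had 7.82, 8.30, 14.1, 10.1, 7.02 and 2.69 Eomesa peaks per covered Mb, in order. None of the full bins on other chromosomes was without an Eomesa peak (0%).

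The long arm had 2 Smad2 peaks over 8.49 Mb of covered length, or 0.236 per covered Mb, and the proximal part had 20 over 17.6 Mb, or 1.13 per covered Mb. The ratio was 0.208 (exact 95% interval 0.0236 to 0.855). The Smad2 rate of the long arm was 0.199 times that of the other chromosomes (0.0240 to 0.719), and that of the proximal part was 0.956 times (0.581 to 1.49), an interval that includes 1. These ratios rest on 2 peaks, and when the long arm was ended at 58 Mb the ratio to the proximal part was 0.278 with an interval of 0.0315 to 1.15, which includes 1.

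For Eomesa the density of peaks on covered sequence did not differ beyond counting error between the sides of 30 Mb. There were 80 peaks on the long arm, 9.43 per covered Mb, and 180 in the proximal part, 10.2 per covered Mb, giving a ratio of 0.924 (0.701 to 1.21). Per Mb of assembled length the ratio was 0.415 (0.315 to 0.544), so the lower number of Eomesa peaks on the long arm went with its lower covered length. Beyond 58 Mb, where cover was higher, lay 4 Eomesa peaks. With the long arm ended there, the ratio per covered Mb was 1.18 (0.887 to 1.54). Over the whole chromosome the Eomesa rate was 1.21 times that of the other chromosomes per covered Mb (1.06 to 1.37) but 0.911 times per Mb of assembled length (0.801 to 1.03). The interval per covered Mb included 1 for peaks of at least 100 bp (1.09, 0.941 to 1.25) and with peaks no more than 10 kb apart counted as 1 (1.15, 0.995 to 1.33). Per covered Mb the long arm was at 1.14 times the other chromosomes (0.906 to 1.43) and the proximal part at 1.24 times (1.06 to 1.44). These intervals treat peaks as independent, although 80 of 180 proximal peaks lay no more than 10 kb from a neighbour. Neither ratio was recomputed with such peaks counted as 1. A difference between the factors in their long arm to proximal ratios was not tested.

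**Figure D2:**
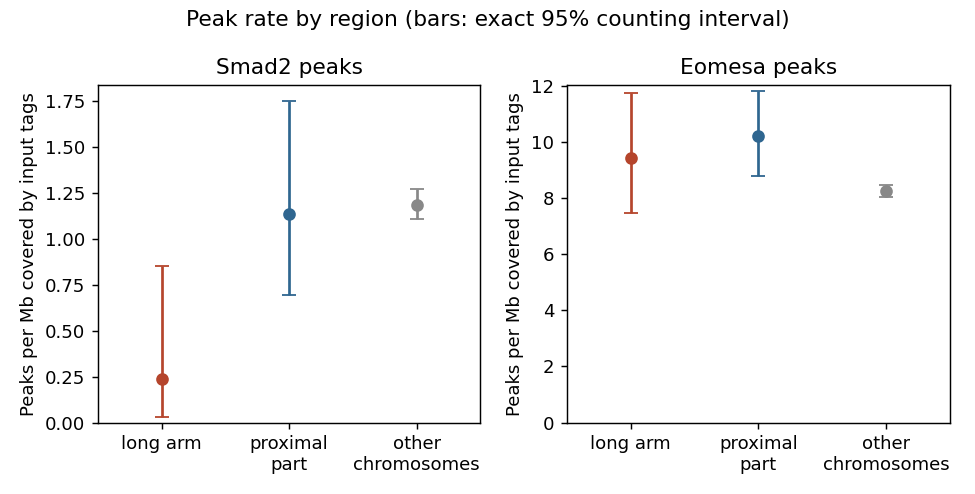
Smad2 peaks (left) and Eomesa peaks (right) per Mb covered by input tags on the long arm, in the proximal part and on the other chromosomes. Points are rates and bars exact 95% intervals for counting error, with 0.236, 1.13 and 1.19 for Smad2 and 9.43, 10.2 and 8.24 for Eomesa, so that the Smad2 interval of the long arm ends below the rate of the proximal part.

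The long arm had 29.5% of the input tags of chromosome 4, 27.5% of its Smad2 tags and 32.3% of its Eomesa tags. Its share of peaks was 9.09% for Smad2 (95% Wilson interval 2.53% to 27.8%) and 30.8% for Eomesa (25.5% to 36.6%). The Eomesa interval included the long arm's share of Eomesa tags, and the upper end of the Smad2 interval was just above its share of Smad2 tags.

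The regions that both factors occupied lay in the proximal part alone. Peaks overlapping the other factor's list by 1 bp or more are termed common here, and the rest lone. On chromosome 4, 7 of 22 Smad2 peaks were common (31.8%, 16.4% to 52.7%), against 39.5% in the whole list, and 7 of 260 Eomesa peaks were common (2.69%, 1.31% to 5.45%), against 5.63%. The share of Smad2 peaks was close to that background, and the Eomesa share was below it with an upper limit just under it. Common Eomesa peaks cannot much outnumber Smad2 peaks, which were 22 beside 260 Eomesa peaks here and 898 beside 6378 in the whole list. The lower Eomesa share is therefore not read as a trait of these Eomesa peaks. None of 80 long arm Eomesa peaks was common (upper Wilson limit 4.58%), while 7 of 180 proximal ones were (3.89%, 1.90% to 7.81%), so the intervals overlap. The long arm had only 2 Smad2 peaks, so few of its Eomesa peaks could have been common. Its share was thus limited in advance and is not read as a trait of its Eomesa peaks.

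Genes named beside a peak are the neighbours that the study's peak tables annotate for it, all within 10 kb. Of the 7 common Smad2 peaks, 5 had such a neighbour. The share over all Smad2 peaks was not computed, so nothing is read from this count. Smad2_peak635 (Zv9, chr4:10645916-10646199) lay near net1 and had the highest signals of both factors among these peaks, 15.0 times the track mean for Smad2, 69.7 times for Eomesa and 1.39 times for input. Its whole width of 284 bp was inside Eomesa_peak4494 (chr4:10645864-10646672), and Eomesa_peak4495 and Eomesa_peak4496 followed at 4.66 and 6.85 kb. The region thus held a single Smad2 peak beside 3 Eomesa peaks of 40, 23 and 21 tags.

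Smad2_peak637 (chr4:11839967-11840216) lay near helb, a DNA helicase gene, and dera, which encodes deoxyribose-phosphate aldolase. It had 7.54 times the mean for Smad2, 19.5 times for Eomesa and 1.48 times for input, and 206 of its 250 bp were shared with Eomesa_peak4504. The taller Eomesa_peak4503, with 69 tags, stood 2.41 kb away and had a Smad2 height of 23 tags, above the 12 tags of the Smad2 peak itself, but had no Smad2 peak of its own. Eomesa_peak4505, 0.148 kb away, had 6 Eomesa tags.

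Smad2_peak638 (chr4:11992357-11992579) lay near lemd3, an inner nuclear membrane protein that binds Smads in human cells, and wif1, a secreted inhibitor of Wnt ligands. Its signals were 12.7 times the mean for Smad2, 35.8 times for Eomesa and 1.65 times for input. All 223 bp were within Eomesa_peak4506.

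Smad2_peak640 (chr4:13041216-13041682) lay near prickle1b, a component of planar cell polarity signalling, and was the tallest Smad2 peak of the chromosome with 38 tags. Smad2 was 14.7 times its mean there, Eomesa 19.3 times and input 2.91 times. It shared 246 of its 467 bp with Eomesa_peak4512, and its Foxh1 match was not in the shared interval. With Eomesa_peak4510, Eomesa_peak4511 and Eomesa_peak4513 the region held 4 Eomesa peaks of 11 to 31 tags over 9.55 kb, and at Eomesa_peak4511 the input track was also high, at 14.8 times its mean.

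Smad2_peak642 (chr4:18625673-18626095) lay near pax4, a paired box transcription factor known for its role in endocrine cells of the mouse pancreas, and snd1, which encodes a nuclease-domain protein. It had 11.0 times the mean for Smad2, 20.1 times for Eomesa and 2.11 times for input. Smad2_peak645 (chr4:21798601-21799022) had 10.3 times, 59.97 times and 2.35 times the mean of the 3 tracks, and Smad2_peak649 (chr4:28465379-28465650) had 8.26 times, 17.1 times and 1.58 times. Neither of the last pair had an annotated neighbour, although the Eomesa signal at Smad2_peak645 was exceeded on the chromosome's Smad2 peaks only by that near net1. Beside Smad2_peak645 stood 2 low Eomesa peaks, Eomesa_peak4557 with 2 tags and Eomesa_peak4559 with 5 tags, at 0.029 and 5.41 kb.

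The 15 lone Smad2 peaks had Eomesa signals below those of every common peak. Eomesa was 0 to 7.45 times its mean at lone peaks, and at least 17.1 times at the 7 common peaks. This separation follows in part from the definition, since a common peak requires an Eomesa peak. Smad2 heights overlapped between the classes, with a median of 22 tags at common and 15 tags at lone peaks, which is 0.52 higher at common peaks as log2(height + 1) (-0.76 to 1.58 from the intervals of both medians). Smad2 signal was above input signal at all 22 peaks, by a median factor of 5.07 and a range of 1.61 to 10.8 between their multiples. Peaks had been called against input, so a signal above input was set by the selection. These factors only describe the listed peaks.

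**Figure D3:**
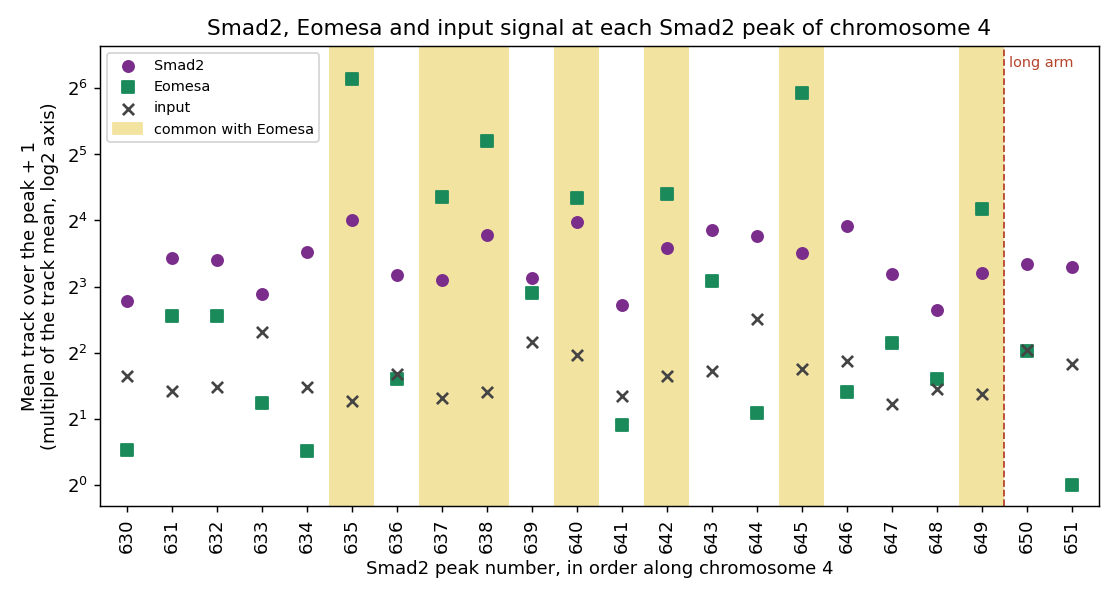
Mean Smad2, Eomesa and input track over each of the 22 Smad2 peaks of chromosome 4, in order along the chromosome (horizontal axis, peak number), as a multiple of each track's mean plus 1 on a log2 axis. Shaded columns are the 7 common peaks, where Eomesa is at least 17.1 times its mean, and the dashed line marks the start of the long arm, whose Smad2_peak650 and Smad2_peak651 have Eomesa at 3.05 and 0 times its mean.

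Among lone peaks the strongest were Smad2_peak646 (chr4:24532167-24532370), Smad2_peak643 (chr4:20361781-20362196) and Smad2_peak644 (chr4:21434109-21434405), with Smad2 at 14.0, 13.5 and 12.7 times its mean. Their input was 2.65, 2.28 and 4.69 times its mean, the last being the highest input value at any Smad2 peak of the chromosome. None had an annotated neighbour, and their nearest Eomesa peaks were 53.7, 198.5 and 128.2 kb away. Smad2_peak643 had the most Eomesa signal of any lone peak, 7.45 times the mean, without an Eomesa peak being listed. Smad2_peak634 (chr4:7375348-7375618) followed with 10.5 times the mean for Smad2, 0.43 times for Eomesa and 1.79 times for input.

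Annotated neighbours were present for 9 of the 15 lone peaks, a count likewise given without a share over all Smad2 peaks and not interpreted. Smad2_peak639 (chr4:12517876-12518136) lay near dyrk2, a dual-specificity kinase gene, with Smad2 at 7.72 and Eomesa at 6.49 times the mean, and input at 3.46 times. Smad2_peak641 (chr4:13525672-13525938) lay near plxnb2a, a semaphorin receptor gene of the plexin family, with Smad2 at 5.56, Eomesa at 0.87 and input at 1.52 times the mean. Smad2_peak648 (chr4:26425532-26426019) lay near zbed4 and brd1, the second a bromodomain protein of histone acetyltransferase complexes. It was the widest Smad2 peak of chromosome 4, 488 bp, and had the lowest Smad2 signal of those 22, 5.24 times the mean, with Eomesa at 2.04 and input at 1.73 times. Smad2_peak630 (chr4:262053-262314), beside a 5S ribosomal RNA gene, had Smad2 at 5.87 times, Eomesa at 0.44 times and input at 2.11 times the mean.

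The weakest separation from input was at Smad2_peak633 (chr4:6431897-6432098), where Smad2 was 6.43 and input 3.98 times its mean. Of the other lone peaks, Smad2_peak636 (chr4:10973629-10973853) had 8.004 and 2.18 times. Smad2_peak647 (chr4:24865991-24866203), near the gene annotated as BX640593.1, had 8.15 and 1.34 times, the largest ratio to input among the 15 lone peaks. Smad2_peak647 was also the farthest from an Eomesa peak, at 245.5 kb. Of the 15 lone peaks, 10 were more than 50 kb from the nearest Eomesa peak and 2 were within 10 kb. Chromosome 4 had 4.19 Eomesa peaks per Mb of assembled length. The same shares over all lone Smad2 peaks were not computed, so these counts are not read as a trait of the peaks.

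Both Smad2 peaks of the long arm were lone. Smad2_peak650 (chr4:32148549-32148820) lay near a gene annotated as ZNF251, a zinc finger gene name, and had Smad2 at 9.15, Eomesa at 3.05 and input at 3.10 times the mean, with the nearest Eomesa peak 11.5 kb away. Smad2_peak651 (chr4:46109023-46109224) lay near the clone-named gene si:dkey-72l17.1 and had Smad2 at 8.83 and input at 2.53 times the mean. Its Eomesa track was at 0 over the whole 202 bp, and the nearest Eomesa peak was 81.7 kb away. Their Smad2 heights of 16 and 14 tags were within the range of 10 to 38 tags of the proximal Smad2 peaks.

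Eomesa peaks on the long arm were narrower than those of the proximal part, while their heights overlapped. Their median width was 146 bp (95% interval 123 to 178 bp) on the long arm and 242 bp (217 to 281 bp) in the proximal part, against 270.0 bp (265 to 275 bp) on other chromosomes. Under 100 bp were 23 of 80 long arm peaks (28.8%, 19.99% to 39.5%) and 30 of 180 proximal peaks (16.7%, 11.9% to 22.8%), against 11.9% in the whole list. Height ranged from 4 to 64 tags with a median of 17 tags on the long arm. In the proximal part it ranged from 1 to 78 tags with a median of 14 tags. The log2 difference was 0.26 (-0.17 to 0.62 from the intervals of both medians). The interval excluded 0 for height divided by input height (0.59, 0.05 to 1.13) and with the long arm taken from 25 Mb (0.36, 0.09 to 0.74). The division sets tracks of unlike tag length against each other, and narrower peaks leave less room for a high input value. The part of peak width in it was not tested. Height on other chromosomes also had a median of 14 tags. Peaks of at most 3 Eomesa tags occurred only in the proximal part of chromosome 4, and among them were very narrow intervals, 1 of them with no width.

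The input and Smad2 tracks had lower median heights at long arm Eomesa peaks than at proximal ones, but both intervals of the difference included 0. Input height had a median of 5.5 tags at long arm peaks and 7 tags at proximal peaks, a log2 difference of -0.30 (-0.85 to 0.19). As multiples of the track mean, averaged over the peak, input had medians of 2.20 and 2.24 in long arm and proximal peaks. Smad2 height had a median of 5 tags on the long arm and 7 tags in the proximal part, a log2 difference of -0.42 (-1 to 0). As multiples of the track mean, Smad2 had medians of 2.83 (2.22 to 3.40) in long arm and 3.64 (3.40 to 4.08) in proximal peaks. A Smad2 height of at least 10 tags, the lowest of any Smad2 peak on the chromosome, was present at 13 of 80 lone Eomesa peaks on the long arm (16.3%, 9.75% to 25.8%) and at 62 of 173 in the proximal part (35.8%, 29.1% to 43.2%). The background over all lone Eomesa peaks was 29.3%, and the long arm interval lay below it. Narrower peaks leave less room for a high value, and the part of peak width in this difference was not tested.

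**Figure D4:**
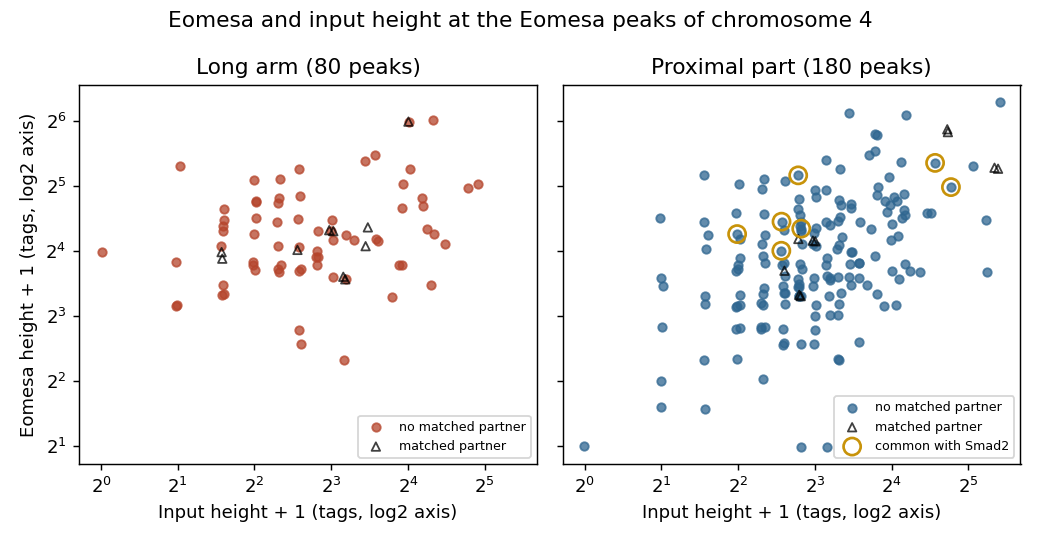
Eomesa height against input height, each plus 1, in tags on log2 axes, at the 80 Eomesa peaks of the long arm (left) and the 180 of the proximal part (right). Triangles are peaks with a matched partner and rings the 7 common peaks, all in the right panel. Points are shifted slightly at random for visibility, and the ranges of 4 to 64 tags (long arm) and 1 to 78 tags (proximal part) overlap.

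The tallest lone Eomesa peaks of the long arm were Eomesa_peak4688 (chr4:55957399-55958469) with 64 tags, Eomesa_peak4667 (chr4:48920581-48921421) with 63, Eomesa_peak4659 (chr4:46212213-46212413) with 62, Eomesa_peak4636 (chr4:34662941-34663259) with 43 and Eomesa_peak4683 (chr4:55275288-55275603) with 41. Their mean Eomesa signal was 53.7, 51.2, 106.2, 31.6 and 36.7 times the track mean, beside 4.42, 3.89, 4.97, 3.79 and 2.70 times for input. Smad2 was 2.85 to 3.51 times its mean at all but Eomesa_peak4659, where it was 11.8 times. Eomesa_peak4659 therefore had the highest Smad2 and mean Eomesa signals of these 5 peaks, although the nearest Smad2 peak was 103 kb away.

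In the proximal part the tallest was Eomesa_peak4447 (chr4:1016804-1018125), which reached the limit of 78 tags over 1322 bp and had 172.4 times the mean for Eomesa, 5.14 times for Smad2 and 10.5 times for input. Eomesa_peak4503 (chr4:11836772-11837555), with 69 tags, had 91.5 times for Eomesa, 7.57 times for Smad2 and 2.12 times for input. Eomesa_peak4609 (chr4:28295871-28296360), with 67 tags, had 80.8, 3.64 and 5.14 times. Eomesa_peak4598 and Eomesa_peak4600 had 57 tags each and were 78 bp wide, with Eomesa at 87.6 and 86.9, Smad2 at 26.7 and 26.6 and input at 10.7 and 10.5 times the mean. Tall Eomesa peaks with high input were thus present in the proximal part as well.

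A smaller share of Eomesa peaks stood in groups on the long arm than in the proximal part. With gaps of at most 10 kb, 21 of 80 long arm peaks (26.3%) formed 10 groups, the largest of 3 peaks, and 80 of 180 proximal peaks (44.4%) formed 29 groups, the largest of 11, against 35.4% of the whole list standing in groups. Per Mb of assembled length the long arm had 2.49 Eomesa peaks and the proximal part 6, and the part of this spacing in the grouped shares was not tested. Counted as 1 per group there were 69 peaks on the long arm and 129 in the proximal part, and the ratio of their rates per covered Mb was 1.11 (0.817 to 1.5003). The largest group ran from Eomesa_peak4593 to Eomesa_peak4603 over 16.2 kb (chr4:28002457-28018655), with 7 of its 11 peaks under 100 bp, Eomesa heights of 15 to 57 tags and input heights of 4 to 40 tags. A group of 6, Eomesa_peak4604 to Eomesa_peak4609, followed over 14.0 kb. Both fell in the bin of 25 to 30 Mb, which had the most Eomesa peaks per covered Mb.

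The tall pair in the large group had equal heights in all 3 tracks, and other such pairs were therefore searched for. A matched partner was a peak of the same list with a width within 2 bp whose 3 tracks differed by at most 10% of their sum when read in the same or the opposite direction, for peaks of at least 30 bp. On the long arm 10 of 80 Eomesa peaks had a partner (12.5%, 6.93% to 21.5%) and in the proximal part 10 of 180 (5.56%, 3.05% to 9.92%), against 3.5% in the whole list. The order depended on the limit, since at 5% it was 1 of 80 on the long arm and 6 of 180 in the proximal part, and at 20% it was 23 of 80 and 42 of 180. On other chromosomes the share was 2.35% at 5% and 17.5% at 20%, so at the strictest limit the long arm, at 1.25%, was below it. At the limit of 10%, chromosome 25 had a larger share (17 of 171, 9.94%) than chromosome 4 (20 of 260, 7.69%). The matched proximal peaks at this limit lay between chr4:28003170 and chr4:29222758, close to the long arm, except for Eomesa_peak4439 and Eomesa_peak4442. Their share was thus not spread evenly over the proximal part. No Smad2 peak on chromosome 4 had a partner, against 3.12% in the whole list.

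These chromosome 4 peaks formed 12 pairs, of which 8 were within the chromosome at 5.89 kb to 14961 kb, 2 had a partner on chromosome 5 or 25 and 2 on unplaced sequence. All 12 pairs had equal width, equal Smad2 height and equal input height, and 8 had equal Eomesa height. In 5 pairs the tracks matched in the opposite direction. Eomesa_peak4597 and Eomesa_peak4599, 173 bp each, both had 45 Smad2, 38 Eomesa and 40 input tags, and Eomesa_peak4598 and Eomesa_peak4600 both had 40, 57 and 26 tags at the same distance of 5.89 kb. Eomesa_peak4659, the third tallest of the long arm, was paired with Eomesa_peak3978 on chromosome 25, with 62 Eomesa tags on chromosome 4 and 60 on chromosome 25 and with 22 Smad2 and 15 input tags at both. A read that mapped to 2 places had been kept and reported at both. Whether the pairs hold the same reads was not tested, since no genome sequence was used here.

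The match extended beyond the peaks in several cases. Windows of 1 kb were added on both sides of a pair while both places held tags in every track. The summed tracks also had to differ by at most 50% of their sum. Around Eomesa_peak4630 and Eomesa_peak4631 on the long arm, 12.3 kb (chr4:32892098-32904418) matched a stretch 75.5 kb further on, with differences of 3.60% for Smad2, 8.33% for Eomesa and 2.89% for input inside, and 96.8% to 100% in the flanks of equal length. The rule for adding windows itself favours low values inside and high ones next to it. The pair counts as 2 Eomesa peaks in every number above.

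The only lone Smad2 peaks within 10 kb of an Eomesa peak were in such a stretch. Smad2_peak631 (chr4:530892-531213), near CU694451.3, and Smad2_peak632 (chr4:610534-610691), near si:ch211-152c2.3 and sobpb, a homologue of sine oculis binding protein, began 79.6 kb apart. Smad2 was 9.81 and 9.53 times its mean in these peaks, Eomesa 4.84 and 4.90 times and input 1.67 and 1.79 times. They lay 1.81 kb from Eomesa_peak4439 and 1.97 kb from Eomesa_peak4442, a matched pair with equal heights of 19 Smad2, 9 Eomesa and 6 input tags and the same spacing of 79.6 kb. Further on were Eomesa_peak4441 and Eomesa_peak4443, with 26 Smad2 and 23 Eomesa tags each and 21 and 22 input tags, and Eomesa_peak4440, which had no width and 1 Eomesa tag, had no counterpart at the second place. At the 4 wider Eomesa peaks the Smad2 height was above the 15 and 14 tags of the listed Smad2 peaks nearby, but no Smad2 peak was listed there.

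Over 9.22 kb around these peaks the tracks at both places differed by 8.07% for Smad2, 16.4% for Eomesa and 10.7% for input. The likeness was not bounded by this stretch. The stretch ends at the first window that is past the limit or lacks tags in any track. At the same spacing the tracks also ran together over the nearer part of the flank before it. Farther out, tall Eomesa and input signal stood at different positions between the places. Over that whole flank, of equal length, the tracks differed by 39.9% for Smad2, 91.8% for Eomesa and 60.3% for input. In the flank after it the differences were 68.3% to 76.6%, and similar profiles stood at a slightly different spacing. The Smad2 peaks differed in width, 322 and 158 bp, and were not a matched pair by the rule. Counted as 1 region, they left 7 of 21 Smad2 peaks common (33.3%, 17.2% to 54.6%) and a long arm to proximal ratio of 0.219 (0.0247 to 0.907).

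**Figure D5:**
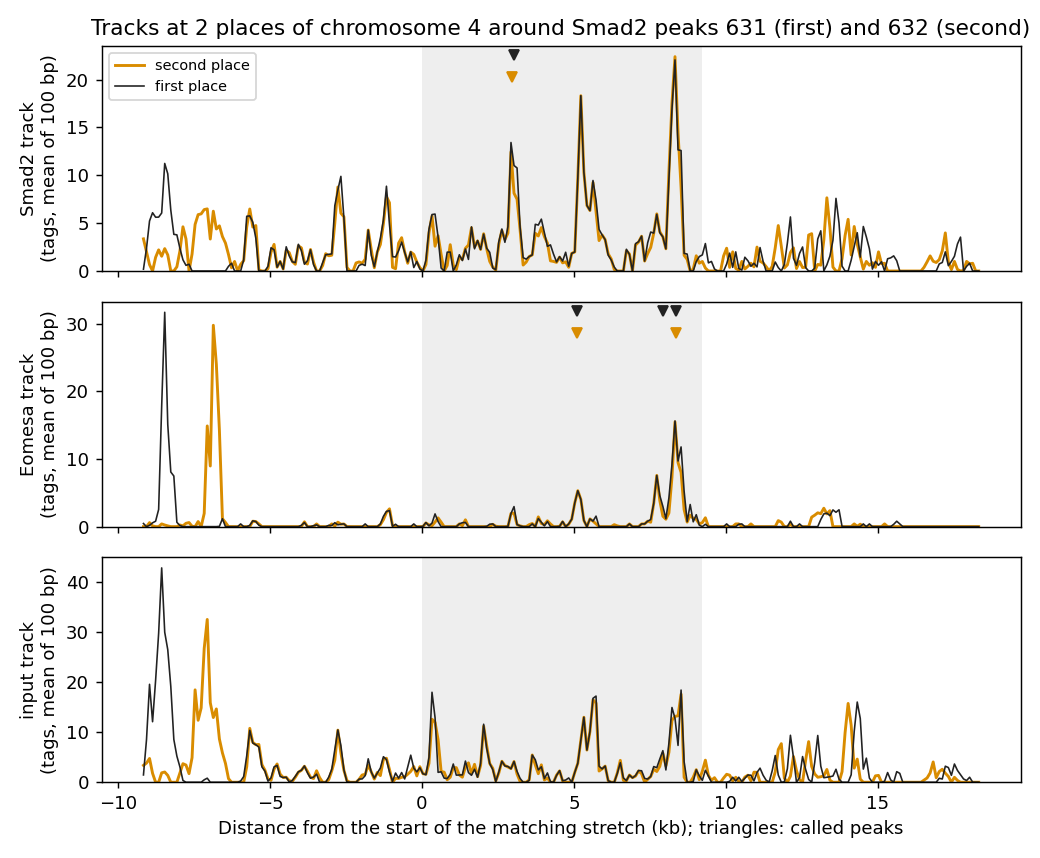
Smad2, Eomesa and input track, as means of 100 bp in tags, at the place of Smad2_peak631 (first place) and that of Smad2_peak632 (second place), against the distance in kb from the start of the matching stretch of 9.22 kb (shaded). Triangles mark called peaks. The lines of both places run together inside the stretch, where the input tracks differ by 10.7%, and over the nearer part of the left flank. Farther left, tall Eomesa and input signal stands at different positions, and on the right similar profiles stand slightly shifted.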

How the data were processed

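Reads had been aligned by the authors to Zv9 with Bowtie, allowing up to 2 places per read. The authors called peaks with MACS against paired input and kept peaks found in both reactions. The deposited lists give position and width of each region, without score. The deposited coverage tracks hold the signal written by MACS, the pileup of shifted tags every 5 bp, not scaled to depth. Whether a track holds both reactions, and which input, is not given in the sources used here. Samples were grouped by their titles.

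Tag length was read from isolated runs of the signal. Peaks were assigned to regions by their centre. Rate ratios have exact (Clopper-Pearson) and shares Wilson intervals at 95%, medians order-statistic intervals. Intervals of height differences join opposite limits of the intervals of both medians and are wider than 95% intervals. Computation used Python 3.11.15, numpy 2.4.6, scipy 1.17.1, pandas 2.3.3 and matplotlib 3.10.9, and was checked on simulated data. Peaks named were every Smad2 peak, Eomesa peaks within 10 kb of one, and the 5 tallest lone Eomesa peaks of each part, with genes and Foxh1 matches from the study's peak tables. Peaks in groups and matched pairs were chosen after their values were seen. Members and lists were chosen with earlier results of these data known. Alternatives covered the boundary, denominator, peak filters, overlap rule and height measure.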

Additional observations from a re-analysis of the deposited data

How the results depend on the processing

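The 10 ratios, shares and height differences were recomputed under 72 alternatives, 7 of them chosen after seeing the data. Of the 72, 68 stayed within the interval of the reported value, which for height differences is wider than a 95% interval. These include the long arm taken from 30 Mb, which is the reported setting and could not differ. They also include filters by width, spacing and input that left the Smad2 ratio of long arm to proximal part unchanged at 0.208. The count of 68 is therefore no measure of stability. The Eomesa ratio of long arm to proximal part was 1.22 with the long arm taken from 25 Mb, 0.415 per Mb of assembled length and 1.23 for peaks at or above the median height of the list, against 0.924 as reported. The Eomesa ratio of chromosome 4 to the other chromosomes turned to 0.911 per Mb of assembled length, against 1.21 per covered Mb, since less of chromosome 4 than of the other chromosomes was covered by input tags (42.1% and 55.8%). The Smad2 ratio of long arm to proximal part was 0.0935 to 0.312, and its interval included 1 for peaks at or above the median height (0.00527 to 1.67) and with the long arm ended at 58 Mb. Other results also had alternatives whose interval changed in whether it included the null value. This held, as given above, for the chromosome-wide Eomesa ratio and the Eomesa height. Per Mb of assembled length it also held for the Eomesa ratio of long arm to proximal part (0.315 to 0.544). A further case was the Smad2 ratio of chromosome 4 to the other chromosomes. That ratio was 0.710 (0.442 to 1.08) per covered Mb and 0.535 (0.333 to 0.815) per Mb of assembled length. The smallest group, 2 long arm Smad2 peaks, sets the precision. No paired analysis was possible because each factor has 1 merged list and each group 1 track, so that no replicate could be left out either.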
